A study of Mus musculus with 18 samples.

Results

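Malat1 and Neat1 are long noncoding RNAs of the nucleus, made from neighbouring genes on mouse chromosome 19. They are described here by the microRNA (miRNA) contacts that were recorded on them in thymocytes, the developing T cells of the thymus. Every chimeric read that lay inside the RefSeq GRCm38 span of either gene and on its strand was taken. These were 2 of the 17563 gene spans that held a chimeric read, and they carried 2835 of the 1190995 reads of all libraries. Malat1 had 2639 of these reads and Neat1 had 196. The pair was chosen by earlier results of the same data, in which Malat1 reads and their miRNAs had been seen, so the miRNA shares and the windows along the RNA are descriptions without a test. Counts on the spans and on their clusters of reads were compared between groups in fits over all spans or all clusters.

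The assay was miR-eCLIP. Cells are irradiated with UV light of 254 nm, which fixes RNA to Argonaute 2 (Ago2), the partner protein of miRNAs. After immunoprecipitation (IP) of Ago2, a miRNA and the target fragment bound with it are ligated, so that a chimeric read names the miRNA and places its contact. Thymocytes came from C57BL/6 wild-type mice and from B6.Mirc14tm1.1Ankr mice, labelled as miR181a/b-1 knockout, all aged 6 weeks. All libraries were made by a company and sequenced as paired reads of 150 nt. For each genotype there were 3 Ago2 IP libraries and 3 libraries in which chimeras of miR-181-5p had been enriched after the IP. Of the 18 samples, the 6 inputs were not analysed here. The labels do not say whether the replicates were separate animals, so a p-value measures only the spread between these samples. The knockout removes the Mir181a-1 and Mir181b-1 genes and leaves the other genes of the family, including those of miR-181c and miR-181d.

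Malat1 is one of the most abundant nuclear RNAs and collects in nuclear speckles, domains rich in splicing factors. Neat1 is the scaffold of paraspeckles, a different nuclear body, and is made as a short and a long isoform that share their 5′ part. A miRNA recognises its targets mainly through its seed, the bases near its 5′ end, and miRNAs of the same seed form a family. The miR-181 family sets the response of thymocytes to antigen receptor signals, the miR-15/16 family restrains the cell cycle and survival genes, and miR-142 is made in blood cells. The files do not show where in the cell a contact took place.

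The miRNAs on which the results turn are shown with their seed, bases 2 to 8, in capitals. The first group makes up the most enriched family on Malat1, the second is the pair that shares its main site, and the third holds the family whose members the knockout removes in part and the miRNA with most Malat1 reads over the pooled Ago2 IP libraries. Mature sequences are from RefSeq (GRCm38.p6), written 5′ to 3′.
miR-16-5p: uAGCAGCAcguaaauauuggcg
miR-15a-5p: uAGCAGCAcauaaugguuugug
miR-15b-5p: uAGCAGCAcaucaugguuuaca
miR-503-5p: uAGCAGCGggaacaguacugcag
miR-25-3p: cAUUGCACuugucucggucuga
miR-32-5p: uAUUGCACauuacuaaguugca
miR-181a-5p: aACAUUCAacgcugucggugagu
miR-181b-5p: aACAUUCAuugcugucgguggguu
miR-181c-5p: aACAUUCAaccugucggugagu
miR-142a-3p: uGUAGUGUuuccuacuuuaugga
miR-16, miR-15a and miR-15b have the same 7 seed letters. miR-503 shares bases 2 to 7 (AGCAGC) and differs from them at the last seed letter. It is counted here with the miR-15/16 family. The mature miR-15b lies at chr3:69009775-69009796 and a copy of miR-16 at chr3:69009918-69009939, both on the plus strand, and miR-15a lies at chr14:61632075-61632096 and miR-503 at chrX:53054027-53054049, both on the minus strand. The mature miR-181a and miR-181b of the copies listed lie at chr1:137966468-137966490 and chr1:137966650-137966673 on the plus strand, and RefSeq lists a second gene for each. miR-181c lies at chr8:84178924-84178945 on the minus strand, and miR-142a-3p at chr11:87756903-87756925 on the plus strand. miR-25 lies at chr5:138165332-138165353 and miR-32 at chr4:56895272-56895293, both on the minus strand.

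Malat1 (gene ID 72289) spans chr19:5795690-5802672 on the minus strand, 6983 nt, with 1 RefSeq transcript. Neat1 (gene ID 66961) spans chr19:5824708-5845480 on the same strand, 20773 nt, with 2 transcripts. No read lay on the opposite strand of either gene, and none in the 22035 nt between them. The 58-nt span of Mascrna, a small RNA cut from the end of the Malat1 transcript, held 0 reads. Malat1 reads lay at 1210 positions and named 82 miRNAs, and Neat1 reads lay at 178 positions and named 33.

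The libraries differed widely in depth. The Ago2 IP libraries held 43983 to 117849 chimeric reads, the wild-type enriched libraries 194628 to 293149, and the knockout enriched libraries 6832 to 19264. At the last of these depths 3 reads, the floor used for a count of 0, stand for 156 to 439 reads per 1000000 of the library (rpm). Of all reads, miR-181-5p made up 30.1% to 32.3% in the wild-type Ago2 IP libraries, 1.32% to 1.44% in the knockout Ago2 IP libraries, 98.8% to 99.2% in the wild-type enriched libraries and 70.5% to 72.6% in the knockout enriched libraries. Reads repeated at a position, strand and miRNA made up 3.24% to 4.72% of the Ago2 IP libraries and 27.9% to 34.1% of the wild-type enriched ones. The 15 thymocyte markers summed to 19090 to 22740 rpm over the 12 libraries, while B cell and myeloid lists reached at most 51.9 rpm each. Ptcra was the thymocyte marker at 0 in both knockout groups. Of the endothelium and fibroblast list, Pecam1 alone had reads in the Ago2 IP libraries, where the list summed to 246 to 306 rpm in wild type and 378 to 458 rpm in knockout; Cdh5, Col1a1, Col1a2 and Pdgfra were at 0 there. The erythroid list, of 5 markers, summed to 42.4 to 101 rpm in wild-type Ago2 IP, where all had reads, and to 0 to 44.4 rpm in knockout Ago2 IP, where Hbb-bt, Hba-a2 and Alas2 were at 0; in the enriched libraries it reached 31.6 rpm in wild type and 146 rpm in knockout. The part of either list in the results below was not tested.

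Malat1 was among the RNAs with most chimeric reads. It ranked 9th of the 12229 gene spans with reads in wild-type Ago2 IP and 6th of 11490 in knockout Ago2 IP. Neat1 ranked 908th and 1238th. Per length, Malat1 had 176 Ago2 IP reads per kb and Neat1 had 4.19. The wild-type Ago2 IP libraries held 337, 204 and 123 Malat1 reads, or 2860, 2953 and 2797 rpm (mean 2870 ± 78.9, SD, n = 3). The knockout Ago2 IP libraries held 195, 221 and 152, or 3208, 3267 and 2917 rpm (3131 ± 187, SD, n = 3). The groups overlapped, since the lowest knockout library lay below the highest wild-type one. In edgeR's quasi-likelihood test, run over all 1615 gene spans tested, the log2 fold change of Malat1 was 0.10 (SE 0.11, 95% interval -0.12 to 0.33, adjusted p = 0.66), and 9.97% of spans were called. It took the other sign, -0.071, when clusters of reads set the normalization. A p above the threshold does not show that the levels were equal, and the interval bounds the difference. With the miR-181 reads set aside, Malat1 had 2800 ± 151 reads per 1000000 of such chimeras in wild type and 3145 ± 161 in knockout (SD, n = 3 each). That difference was 0.16 on the log2 scale (SE 0.11, 95% interval -0.06 to 0.38, edgeR adjusted p = 0.60, 2.29% of 1396 spans called). In libraries of pooled cells, fewer cells that express an RNA and less RNA per cell cannot be told apart.

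Neat1 was measured much less precisely. Its wild-type Ago2 IP libraries held 17, 21 and 16 reads (144, 304 and 364 rpm, mean 271 ± 113, SD, n = 3), and the knockout ones 10, 16 and 7 reads (165, 237 and 134 rpm, mean 179 ± 52.5, SD, n = 3). The groups overlapped. The log2 fold change of -0.40 had a 95% interval from -1.07 to 0.27 (SE 0.33, edgeR adjusted p = 0.51). Among chimeras outside the miR-181 family it was -0.67 (SE 0.35, 95% interval -1.35 to 0.01, edgeR adjusted p = 0.40).

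**Figure D1:**
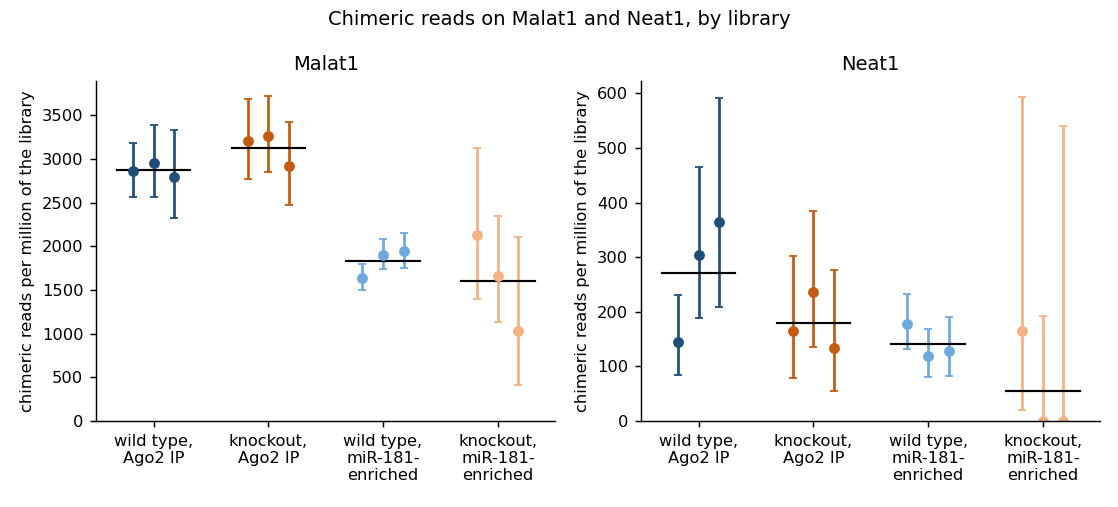
Chimeric reads per 1000000 reads of the library on Malat1 (left) and Neat1 (right) in the 12 libraries; points are libraries, bars are exact 95% Poisson intervals for counting error only and black lines are group means. Malat1 lies between 2797 and 3267 rpm in all 6 Ago2 IP libraries and between 1025 and 2134 rpm in the enriched ones, and Neat1 was seen in 1 of the 3 knockout enriched libraries.

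The enriched libraries ask which RNAs are held by miR-181. The wild-type enriched libraries had 481, 482 and 379 Malat1 reads, 1641, 1901 and 1947 rpm (1830 ± 165, SD, n = 3). The knockout enriched libraries had 26, 32 and 7 reads, 2134, 1661 and 1025 rpm (1606 ± 557, SD, n = 3), which enclosed the wild-type values. The difference was -0.41 on the log2 scale (SE 0.22, 95% interval -0.88 to 0.05, edgeR adjusted p = 0.32, 5.5% of 2146 spans called). Neat1 had 52, 30 and 25 reads in wild type (141 ± 31.6 rpm, SD, n = 3) and 2, 0 and 0 in knockout, with a log2 fold change of -1.72 (SE 0.94, 95% interval -3.68 to 0.24, edgeR adjusted p = 0.33). At the depth of the knockout enriched libraries a Neat1 level like that of wild type was below the floor.

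Against the Ago2 IP of the same genotype, Malat1 made up a smaller part of the enriched libraries in knockout. There its log2 fold change was -0.72 (SE 0.20, 95% interval -1.12 to -0.31, edgeR adjusted p = 0.0057), where 20.7% of 828 spans were called, 4.95% of the 828 as lower. This call rested on single libraries: without knockout enriched library 2 the value was -0.81 (adjusted p = 0.074) and without library 3 it was -0.60 (adjusted p = 0.052). In wild type the value was -0.28 (SE 0.13, 95% interval -0.54 to -0.02, edgeR adjusted p = 0.085, 36.5% of 3145 spans called), and -0.65 (adjusted p = 8.40e-05) with library sizes alone, a scaling that moved the median of all spans from -0.02 to -0.39. With replicate number as a block, this Malat1 value also passed the threshold, as given in the closing section. For Neat1 in wild type it was -0.38 (SE 0.29, 95% interval -0.95 to 0.20, edgeR adjusted p = 0.32), and without wild-type Ago2 IP library 1 it was -0.82 (adjusted p = 0.043). It was -0.76 (edgeR adjusted p = 0.022) with library sizes alone and took the other sign, 0.35 (edgeR adjusted p = 0.78), with miR-181 reads alone. Neat1 had too few reads in knockout to be tested. The knockout effect on Malat1 differed between the enriched and Ago2 IP libraries by -0.70 (SE 0.26, edgeR adjusted p = 0.16, 2.42% of 2067 spans called), and by 0.21 when clusters set the normalization. These comparisons share libraries and are not independent of each other.

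miR-181 supplied about as much of the Malat1 reads as of the whole libraries in wild type, and few of them in knockout Ago2 IP. It made up 31.7%, 30.9% and 35.8% of the Malat1 reads in wild-type Ago2 IP. The shares in knockout were 0%, 2.71% and 0%, with all 6 reads in library 2. The groups did not overlap, and the means differed by -31.9 percentage points. The mean share of miR-181 in the whole libraries went from 31.1% to 1.38% between the same groups. In the enriched libraries the shares were 99.0%, 99.4% and 99.7% in wild type and 69.2%, 75% and 42.9% in knockout, a difference of means of -37.0 points, against 99.0% and 71.9% of the whole libraries. The lowest of these shares, in knockout enriched library 3, was 3 of 7 reads, and without that library the difference was -27.2 points. On Neat1, miR-181 made up 10 of 54 reads in wild-type Ago2 IP (18.5%, 95% Wilson interval 10.4% to 30.8%) and 2 of 33 in knockout; the groups overlapped (difference of means -13.8 points). The intervals of shares cover counting error only.

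Within the miR-181 family, the mix of members on Malat1 and Neat1 was described without a test. miR-181b made up 10.9% (95% Wilson interval 9.32% to 12.7%) of the miR-181a and miR-181b reads on Malat1 in the wild-type enriched libraries, with 143 reads against 1170 of miR-181a. On Neat1 it made up 22.4% (15.6% to 31.2%), with 24 against 83, and in the libraries as a whole 18.4%. Of these Neat1 reads, 17 of the 24 of miR-181b and 10 of the 83 of miR-181a lay in a single stretch, at nucleotides 14685 to 14781. In the knockout enriched libraries, miR-181c supplied 19 of the 45 Malat1 reads of the family (42.2%, 29.0% to 56.7%), against 22.2% of the family in those libraries. miR-181a supplied 16, miR-181b 6 and miR-181d 4. In wild-type Ago2 IP libraries miR-181c had supplied 4 of 214.

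The miRNAs of the miR-15/16 family stood furthest above their library share on Malat1 among the 6 families compared over the pooled Ago2 IP reads. In 2 of the 6 libraries the family of miR-25 and miR-32 stood further above its share, at 5.19 against 4.90 times in wild-type library 1 and 5.57 against 5.18 times in knockout library 2. In wild type they made up 79 of 337, 45 of 204 and 35 of 123 Malat1 reads (23.4%, 22.1% and 28.5%), where they made up 4.78%, 4.72% and 4.64% of the libraries. In knockout they made up 71 of 195, 74 of 221 and 65 of 152 (36.4%, 33.5% and 42.8%), with library shares of 6.71%, 6.46% and 6.57%. In each of the 6 libraries the share on Malat1 was between 4.67 and 6.51 times the library share. Set against chimeras of miRNAs outside the miR-181 family alone, the share was 36.9% ± 6.56 in wild type and 37.9% ± 4.36 in knockout (SD, n = 3 each), with library means of 6.84% and 6.67%. On that scale the genotypes differed by less than their spread. In the enriched libraries, 3 of 9 such chimeras on Malat1 in wild type and 4 of 20 in knockout belonged to this family.

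Members of the family differed in how far they stood above their supply. miR-16 was the most frequent, with 229 Ago2 IP reads on Malat1, 3.94 times its share of the libraries (3.12 to 4.75 times in single libraries). miR-15b had 56 reads and 7.85 times its share (5.27 to 10.02), and miR-15a had 38 reads and 18.03 times its share (11.7 to 28.8). miR-503, a scarce miRNA here, had 46 reads and 61.2 times its share (55.8 to 71.5), from 3 to 12 reads in each library. All of these were above their library share in 6 of 6 libraries. Of the 251 miR-503 chimeras in the Ago2 IP libraries, 18.3% (95% Wilson interval 14.03% to 23.6%) lay on Malat1, and the next spans, Ccnt2 and Btg2, had 2 each. For miR-15a it was 38 of 704 (5.40%), where Btg2 followed with 5, and for miR-15b 56 of 2382 (2.35%), where Smc4 followed with 19. For miR-16 it was 229 of 19424, and Gnas followed with 197. Malat1 was the span with most reads for each of these miRNAs.

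The family was not on Malat1 only. Of the 685 spans with at least 100 Ago2 IP chimeras of miRNAs outside the miR-181 family, Malat1 ranked 5th by the share of miR-15/16, at 36.5%, and the median span had 5.75%. The spans above it were H4c12 (81.4%) and H4c11 (47.6%), which are histone H4 genes, Gnas (77.9%), which encodes a G protein alpha subunit, and Thy1 (38.2%), a surface protein of T cells.

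**Figure D2:**
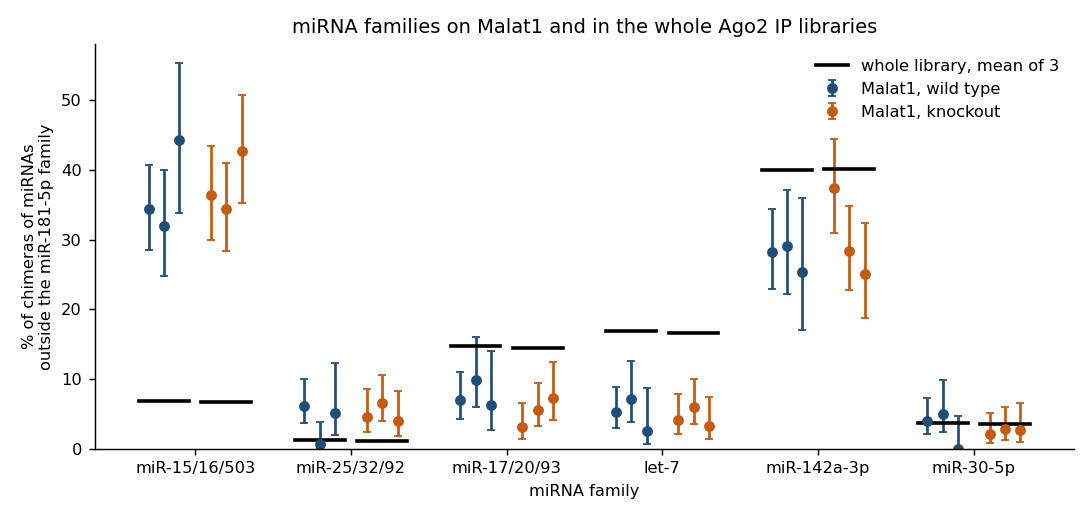
Share of each miRNA family among Ago2 IP chimeras outside the miR-181-5p family on Malat1 in 3 wild-type and 3 knockout libraries (points, with 95% Wilson intervals), and in the whole libraries (black bars, mean of 3). The miR-15/16 points lie between 31.9% and 44.3%, above the library means of 6.84% and 6.67%, whereas let-7 and miR-142a-3p points lie below theirs.

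A second family stood above its supply with fewer reads. miR-25 had 31 Ago2 IP reads on Malat1, 2.96 times its library share, and was absent from 1 library. miR-32, of the same seed, had 15 reads and 17.7 times its share (8.46 to 26.9 over libraries of 1 to 4 reads each). Malat1 was the span with most miR-32 reads, 15 of 283, and Btg2 followed with 8. With 2 reads of miR-363-3p, the family made up 4.22% of the Malat1 chimeras outside miR-181 in wild type and 5.16% in knockout, against 1.195% and 1.157% of the libraries.

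Other abundant miRNAs stood below their supply. miR-142a-3p was the most frequent miRNA on Malat1 over the pooled Ago2 IP libraries, with 126 of 664 reads in wild type and 172 of 568 in knockout, but at 0.733 times its library share, and it was below that share in 6 of 6 libraries (0.608 to 0.938 times). In wild type alone miR-181a had more reads, 171 of 664, and in knockout it had 1 of 568. let-7, a family linked to cell maturation, made up 24 reads in wild type (3.61%) and 26 in knockout (4.58%), against 11.6% and 16.4% of the libraries. miR-17 and miR-20a, of the growth-promoting miR-17-92 cluster, had 19 Ago2 IP reads each and stood at 0.463 and 0.421 times their shares. miR-181a stood at 1.05 times its share over the pooled Ago2 IP libraries, and at 1.02 to 1.26 times in single wild-type ones.

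Several miRNAs with published contacts to Malat1 or Neat1 were also looked up, whatever their reads. miR-9, miR-101a, miR-101b, miR-204, miR-106b, miR-124, miR-145a and miR-146a had no chimera on either RNA. miR-146a had 165 chimeras in the Ago2 IP libraries, and each of the others had 0 or 1, so that contacts of theirs could not be assessed here. Why these names had so few chimeras was not tested. miR-155 had 4 Ago2 IP reads on Malat1 of its 2334, and the miR-30 family had 30 on Malat1 and 2 on Neat1.

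Contacts on Malat1 were gathered in the 3′ part of the RNA. Positions are counted from the 5′ end, nucleotide 1 at chr19:5802672. In the Ago2 IP libraries 87.3% of the reads (95% Wilson interval 85.3% to 89.0%) lay 3′ of the midpoint, and in the enriched ones 70.2% (67.7% to 72.5%). By library this was 85.2%, 85.3% and 81.3% in wild-type Ago2 IP, 91.8%, 89.1% and 90.8% in knockout Ago2 IP, 70.1%, 67.8% and 70.4% in wild-type enriched, and 84.6%, 87.5% and 85.7% in knockout enriched libraries. The wild-type enriched libraries were the lowest and the knockout Ago2 IP libraries the highest. These groups differ in both genotype and enrichment, and the order was not tested. The knockout enriched shares rest on 26, 32 and 7 reads. Reads within 20 nt of each other along the RNA were joined into clusters, which gave 57 clusters on Malat1, 22 of them of 1 read. The largest pair of clusters held 69.1% of all Malat1 reads.

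The first of these clusters, nucleotides 4969 to 5595 (chr19:5797078-5797704), had 1129, 1057 and 1160 rpm in wild-type and 1711, 1597 and 1497 rpm in knockout Ago2 IP libraries. For this cluster the log2 fold change of 0.39 did not pass the threshold (SE 0.16, 95% interval 0.06 to 0.71, edgeR adjusted p = 0.060 over 251 clusters tested). Its miR-181 reads were 64 of 257 in wild type and 2 of 290 in knockout. The second, nucleotides 3865 to 4947 (chr19:5797726-5798808), had 1069, 1202 and 1023 rpm against 1036, 1064 and 959.7, with overlapping groups (log2 fold change -0.25, SE 0.18, edgeR adjusted p = 0.30). The third tested, nucleotides 3100 to 3580 (chr19:5799093-5799573), had 187, 232 and 227 rpm in wild type and 132, 163 and 76.8 rpm in knockout. Here the log2 fold change of -0.85 did not pass (SE 0.37, 95% interval -1.60 to -0.10, edgeR adjusted p = 0.074). In that cluster miR-181 had 24 of 48 reads in wild type and 0 of 23 in knockout. Of the 3 Malat1 clusters tested, edgeR and DESeq2 each called 0, against 36.3% of all clusters by edgeR. An unadjusted edgeR p under 0.05 was reached by 2 of the 3, and by 109 of all 251 clusters. No Neat1 cluster had enough reads to be tested. Some other settings called 1 of the Malat1 clusters: the first with library sizes alone (0.53, edgeR adjusted p = 0.0062), and the third with repeated reads counted once (-0.86, adjusted p = 0.040).

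The families differed in the stretch where their reads were most frequent. Windows of 100 nt, each 1.43% of the RNA, were placed where a family had most reads, so their counts are descriptions only. The miR-15/16 window, nucleotides 5051 to 5150 (chr19:5797523-5797622), held 248 of the 369 Ago2 IP reads of the miR-15/16 family (67.2%, 95% Wilson interval 62.3% to 71.8%). Most reads of each named member lay there, with 139 of 229 miR-16, 29 of 38 miR-15a, 45 of 56 miR-15b and 35 of 46 miR-503 reads. The other seed found above its supply was there too, with 24 of 31 miR-25 and 13 of 15 miR-32 reads. A further 60 reads of the miR-15/16 family lay just upstream, at nucleotides 4851 to 4950 (chr19:5797723-5797822), of which 47 were miR-16 and 2 miR-503.

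The miR-15/16 window was also the place of most reads overall. It held 412 of 1232 Ago2 IP reads on Malat1 (33.4%), which named 33 miRNAs, lay at 81 positions and were 358 reads when repeats were counted once. Such gathering was not particular to Malat1. Among the 685 spans with at least 100 Ago2 IP chimeras outside the miR-181 family, it ranked 77th by the share of these chimeras in its densest 100 nt. That share was 38.1%, and the median span had 12.7%. The miR-15/16 window held 43 of 220 Ago2 IP reads of miR-181 and 37 of 298 of miR-142a. Its reads of all miRNAs came to 840.1, 753 and 796 rpm in wild-type and 1250, 1301 and 1190 rpm in knockout Ago2 IP libraries. Scaled per 1000000 chimeras outside the miR-181 family, its miR-15/16 reads were 619, 587 and 672 in wild type (626 ± 42.8, SD, n = 3) and 817, 779.6 and 935 in knockout (844 ± 81.0, SD, n = 3). The knockout libraries were all higher in both measures, which the choice of the window leaves without a test. In the window just upstream the means went the other way, 227 ± 95.1 in wild type and 158 ± 21.8 in knockout (SD, n = 3 each) on the same scale, with overlapping groups. Over the whole of Malat1 the same family had 1026 ± 130 and 1186 ± 78.2 reads per 1000000 such chimeras, and there the groups overlapped.

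**Figure D3:**
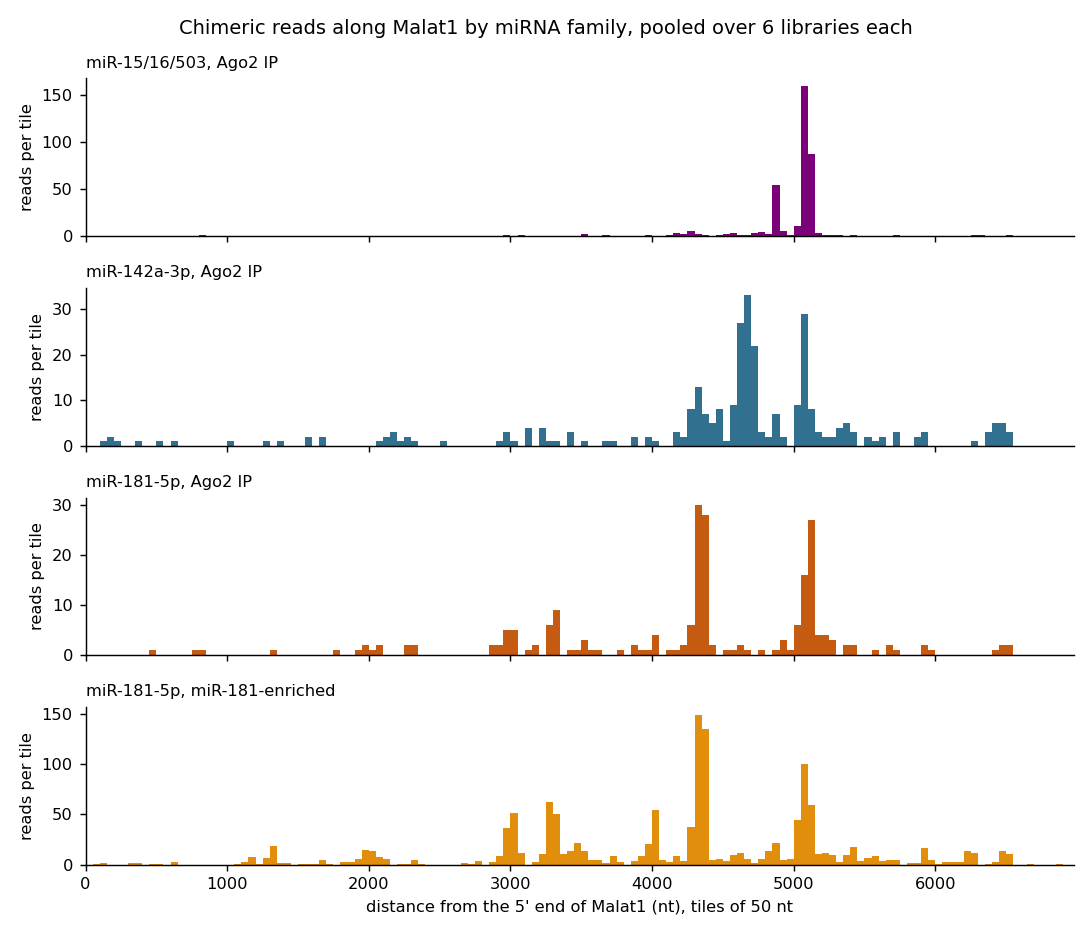
Chimeric reads along Malat1 in tiles of 50 nt from the 5′ end, pooled over the 6 Ago2 IP libraries (upper 3 panels) or the 6 enriched libraries (lowest panel), with a separate linear scale for each panel. The miR-15/16 reads form a peak at nucleotides 5051 to 5150 with a smaller one upstream, miR-142a-3p reads are highest at 4601 to 4700, and miR-181-5p reads are highest at 4301 to 4400 in both kinds of library.

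The miR-181 reads were most frequent in another window, which held a minor part of them. The window at nucleotides 4301 to 4400 (chr19:5798273-5798372) held 58 of 220 Ago2 IP reads of the family (26.4%, 95% Wilson interval 21.0% to 32.6%) and 284 of 1378 in the enriched libraries (20.6%, 18.6% to 22.8%). These shares include repeated reads. With repeats counted once, reads of all miRNAs in this window went from 94 to 89 in Ago2 IP and from 287 to 182 in the enriched libraries. The window held 3 reads of miR-15/16. Its miR-181 reads were 221, 232 and 296 rpm in wild-type Ago2 IP libraries, and 0, 44.4 and 0 rpm in the knockout ones. In the knockout enriched libraries they were 6, 6 and 2 reads, and miR-181c gave 8 of these 14. Contacts of the family at this site were still seen in knockout, in all 3 enriched libraries and 1 of 3 Ago2 IP libraries. The miR-15/16 window came second for the family, with 43 of 220 Ago2 IP reads (19.5%, 14.9% to 25.3%) and 159 of 1378 enriched reads. In the Ago2 IP libraries the intervals of these windows overlapped. Further windows at nucleotides 3251 to 3350 and 2951 to 3050 held 112 and 87 enriched reads of the family, all from wild type. The knockout libraries of either kind had 0 in both. Those libraries held only 45 (enriched) and 6 (Ago2 IP) reads of the family on all of Malat1, so a count of 0 does not show that a site was lost. With repeats counted once, the enriched reads of all miRNAs in these further windows went from 113 to 86 and from 87 to 66. In the miR-15/16 window they went from 168 to 127.

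miR-142a had its main window between those of the other families, at nucleotides 4601 to 4700 (chr19:5797973-5798072), with 60 of its 298 Ago2 IP reads (20.1%). The miR-142a reads there were 14, 6 and 5 in wild type and 14, 13 and 8 in knockout. Scaled per 1000000 chimeras outside the miR-181 family these were 170.0, 126 and 168 against 233, 195 and 156, which overlapped. The position with most reads was nucleotide 4621 for miR-142a, 4339 for miR-181, 5086 for miR-15/16 and 5114 for miR-25/32.

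**Figure D4:**
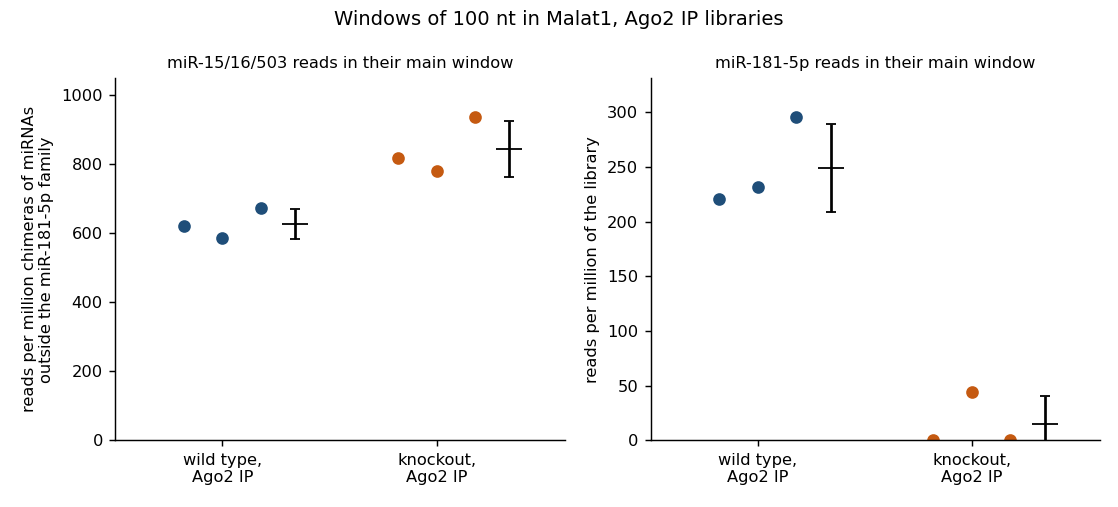
Reads of miR-15/16 at nucleotides 5051 to 5150 of Malat1, per 1000000 chimeras outside the miR-181-5p family (left), and of miR-181-5p at nucleotides 4301 to 4400, per 1000000 of the library (right), in the Ago2 IP libraries; points are libraries, and the black marks are the mean and SD of 3. The left groups are 587 to 672 and 779.6 to 935, and the right groups are 221 to 296 and 0 to 44.4.

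Neat1 contacts were spread thinly along the RNA. Of its 105 clusters 79 had 1 read, and 48.3% of the Ago2 IP reads (95% Wilson interval 38.1% to 58.6%) lay 3′ of the midpoint. No read lay before nucleotide 1267. A single cluster had 10 or more reads: nucleotides 14685 to 14781 (chr19:5830700-5830796) held 39, with 11 from Ago2 IP and 28 from enriched libraries. The wild-type enriched libraries had 9, 6 and 12 reads there, and the Ago2 IP libraries 2, 1 and 1 in wild type and 3, 3 and 1 in knockout. Its leading miRNAs were miR-181b with 17 reads, miR-181a with 10 and miR-16 with 7. miR-181b thus made up 63.0% (95% Wilson interval 44.2% to 78.5%) of the miR-181a and miR-181b reads at this site in wild-type enriched libraries, against 18.4% in the libraries as a whole. At nucleotides 1356 to 1396 and 1321 to 1335, in the 5′ part, there were 7 reads each, all of miR-181a.

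The miRNAs on Neat1 were led by miR-142a with 19 Ago2 IP reads and miR-16 with 11, 2.68 times its library share and above it in 5 of 6 libraries. The miR-15/16 family made up 8 of 54 reads in wild type (14.8%) and 4 of 33 in knockout (12.1%). Of these 12 reads, 8 lay between nucleotides 14001 and 15000. The let-7 family, which was below its supply on Malat1, made up 13 of 54 Neat1 reads in wild type (24.1%, against 11.6% of the libraries) and 5 of 33 in knockout (15.2%, against 16.4%). The miR-17/20/93 family had 0 of 54 reads in wild type and 6 of 33 in knockout. With so few reads these shares carry wide counting error.

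**Figure D5:**
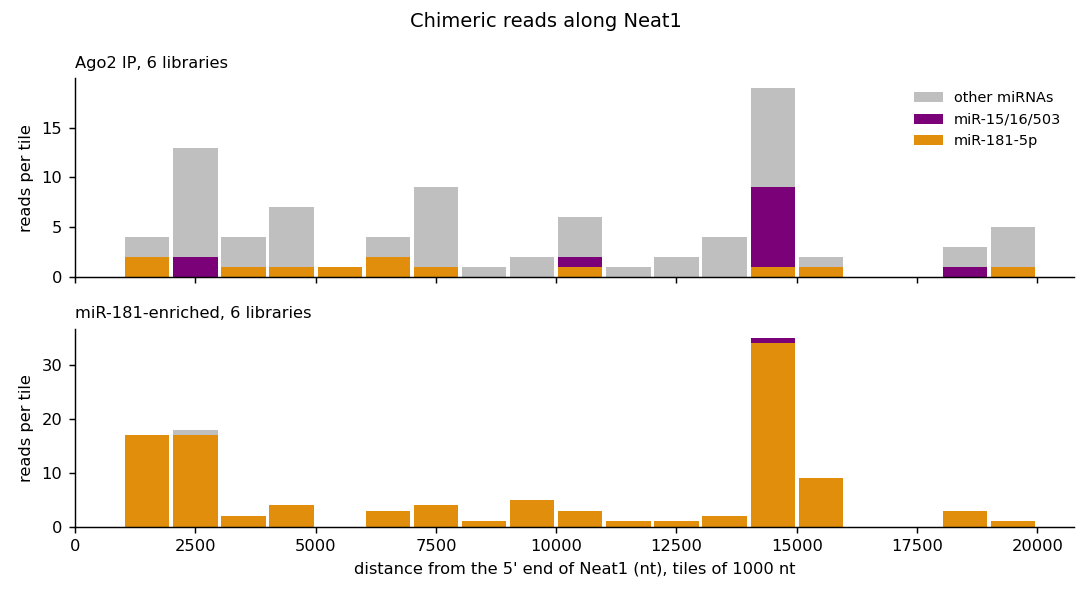
Chimeric reads along Neat1 in tiles of 1000 nt from the 5′ end, pooled over the 6 Ago2 IP libraries (upper panel) and the 6 enriched libraries (lower panel), stacked by miRNA family. Both panels are highest between nucleotides 14001 and 15000, where 8 of the Ago2 IP reads belong to miR-15/16, and no read lies before nucleotide 1267.

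The log2 rpm of Malat1 and Neat1 over the 12 libraries had a Pearson r of 0.624, a description over libraries that share group and depth. The spans most like Malat1 among 2067 compared were Trac (r = 0.972), the constant part of the T cell receptor alpha chain, Prrc2c (0.956), Itpr2 (0.949), Pitpnm2 (0.944) and Mylip (0.937). Those most like Neat1 were Cpeb4 (0.896), Osbpl11 (0.888), Adam12 (0.882), Ptpn1 (0.867) and Arap2 (0.862).

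The proteins that form the bodies around these RNAs were compared through the chimeras on their own transcripts. For these and the later lists, miR-181 chimeras were counted with the rest, and the knockout removes most of them from the Ago2 IP libraries. Over all spans, 161 of 1615 were called between genotypes in Ago2 IP, and 32 of 1396 with other miRNAs alone. List genes were not tested with miR-181 reads set aside. Of 15 paraspeckle proteins, 9 were tested between genotypes in Ago2 IP libraries, 0 were higher and 3 lower in knockout (3.28% and 6.69% of all spans), with a median log2 fold change of -0.34 against 0.02 over all spans. The lower ones were Sfpq (-1.15, SE 0.21, edgeR adjusted p = 2.98e-05), a core paraspeckle protein, Tardbp (-1.14, SE 0.28, adjusted p = 0.0033), which encodes TDP-43, and Taf15 (-1.28, SE 0.39, adjusted p = 0.022). Sfpq was called with library sizes alone, with DESeq2 and without each library in turn. Tardbp was not called by DESeq2 (adjusted p = 0.097), nor was Taf15 (adjusted p = 0.19), which also lost the call without wild-type library 3 (-0.99, edgeR adjusted p = 0.15) or any single knockout library (adjusted p of 0.052 to 0.056) and was not tested without wild-type library 1. In the enriched libraries 11 were tested, 0 were higher and 2 lower in knockout (2.1% and 3.4% of all spans), Sfpq (-1.24) and the RNA-binding protein gene Rbmx (-1.57). In wild type, enrichment against Ago2 IP gave 4 of 13 higher and 1 lower (20% and 16.5% of all spans): Rbmx (4.30), Sfpq (1.67), Nono (1.64), the partner of Sfpq, and Tardbp (0.49) were higher and Hnrnpk (-1.01) was lower. Rbmx, Sfpq and Nono were called under every setting run, whereas Tardbp was at 0.12 (edgeR adjusted p = 0.65) with library sizes alone, was not called by DESeq2 (0.50, adjusted p = 0.19) and not called without wild-type Ago2 IP library 1 or 2 or enriched library 3, and Hnrnpk was at -0.86 (adjusted p = 0.064) without Ago2 IP library 1. In knockout 2 of 4 were higher and 0 lower (15.7% and 4.95% of all spans). Scaling by library sizes alone changed the calls over all spans from 628 higher and 520 lower to 393 and 1077 for enrichment in wild type, from 130 and 41 to 123 and 98 in knockout, and from 45 and 73 to 82 and 34 between genotypes in enriched libraries.

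Of 16 nuclear speckle and splicing proteins, 6 were tested between genotypes in each kind of library and 0 were called by edgeR or DESeq2 in either. The medians were 0.06 in Ago2 IP and -0.10 in enriched libraries, against 0.02 and -0.14 over all spans. In each kind 1 had an unadjusted edgeR p under 0.05, as had 371 of all 1615 spans in Ago2 IP and 412 of 2146 in enriched libraries. Enrichment in wild type gave 3 of 10 higher and 1 lower (20% and 16.5% of all spans). Higher were U2af2 (1.26), Ddx39b (1.21) and Sf3b1 (0.86), all splicing factors, and Tra2b (-1.24) was lower. Sf3b1 lost the call with library sizes alone (0.48, edgeR adjusted p = 0.11), with DESeq2 (adjusted p = 0.068) and without wild-type Ago2 IP library 1 (0.47, adjusted p = 0.23). In knockout 0 of 3 were called by edgeR or DESeq2, with 1 at an unadjusted edgeR p under 0.05, as were 258 of all 828 spans. Of 28 other long noncoding RNAs, 5 were tested between genotypes in Ago2 IP libraries and 0 were called by edgeR or DESeq2. An unadjusted edgeR p under 0.05 was reached by 1 of the 5, and by 371 of all 1615 spans. A further comparison tested 7 in enriched libraries, where Snhg6 was lower in knockout (-2.56, edgeR adjusted p = 0.042; 3.4% of all spans were lower). That call was lost with library sizes alone (-2.28, adjusted p = 0.090) and without each knockout enriched library in turn (-3.47 to -1.99, adjusted p of 0.061 to 0.16). Enrichment in wild type gave 3 of 8 higher and 1 lower (again 20% and 16.5% of all spans). Higher were the snoRNA host genes Snhg6 (3.9), Gas5 (1.83) and Snhg1 (1.39), and Dleu2 (-1.13), the host of miR-15a and miR-16-1, was lower. In knockout Gas5 (1.66) was higher among 2 tested (15.7% of all spans were higher), and not without enriched library 2 (1.55, edgeR adjusted p = 0.12). Spans of such host genes also cover the small RNAs inside them. None of the 15 genes within 100000 nt of Malat1 or Neat1 had enough reads to be tested.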

How the data were processed

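Chimeric reads from 12 miR-eCLIP libraries were used. The deposited files are unscaled counts: every line stands for 1 read and gives a position of 1 nt, a strand and a miRNA name. The submitters' processing notes name Bowtie2 2.4.5, SAMtools 1.11, STAR 2.7.10, UMI-tools 1.1.1 and bedtools 2.30.0, and the builds mm10 and GRCm38.p6, without settings. Which end of a read a position marks is not given in the sources used here. Reads were assigned to RefSeq gene spans by strand, and the strand of Neat1 was taken from its reads. Spans hold no exons, so exon classes were not analysed here, nor seed matches, which need a genome sequence. Of 374 miRNA names 288 matched a RefSeq sequence.

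Counts per span were compared with edgeR 4.0.16 in R 4.3.3 (quasi-likelihood F test, TMM, filterByExpr with a minimum count of 10, Benjamini-Hochberg over all spans tested, threshold 0.05), using the groups of each comparison only, or all 12 libraries for the difference of effects. Shares (Python 3.11.15, scipy 1.17.1) carry 95% Wilson intervals, which cover counting error only because repeated reads need not be separate molecules. On simulated counts the fit recovered 99.4% of genes changed by 2 on the log2 scale between genotypes in Ago2 IP (1623 genes in the fit), 64.2% in enriched libraries (2117 genes), and 97.7% (2981 genes) and 93.2% (746 genes) for enrichment in wild type and knockout. There were 3 to 9 false calls per comparison. The simulation gave every gene the same dispersion, 0.05, and changed only genes that had passed the filter. Smaller changes, such as those of Malat1, were not simulated.

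The text names both members, the clusters and miRNAs of most reads on each, the miR-181 family, the 5 spans of highest correlation with each member and the called genes of fixed lists. The miR-15/16 and miR-25/32 comparisons and the windows were added after the values were seen, as were the refits of list genes without single libraries. Members and lists were chosen with earlier results of these data known; permutation tests planned for miR-181 shares are not given, because the choice of members used those shares. Alternatives were DESeq2 1.42.0, library sizes, no filter, repeats counted once, both strands, replicate number as a block, leaving out libraries, summing knockout enriched libraries 2 and 3, clusters as features, and miRNA subsets.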

Additional observations from a re-analysis of the deposited data

How the results depend on the processing

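Of 245 alternative values for 20 results, 219 kept their direction and side of the threshold, 17 passed it, 3 lost it and 6 changed sign. The causes were not tested. Leaving out single libraries, which keeps most of the data, gave 123 of these values, and 120 stayed on the same side. Of the other 122 values, 99 did. For a result that was not called, keeping its side means staying uncalled. All adjusted p-values here are edgeR's. Between genotypes in Ago2 IP, Malat1 was -0.071 with clusters as the table and -0.84 with miR-181 reads alone. In enriched libraries it was -1.03 (adjusted p = 4.79e-05) with no filter on low counts. For enrichment in wild type, Malat1 was -0.65 with library sizes alone, -0.42 (adjusted p = 0.0010) with repeats counted once and -1.44 (adjusted p = 8.22e-07) with clusters. Neat1 was -0.76 (adjusted p = 0.022) with library sizes alone and -1.57 (adjusted p = 6.91e-04) under another setting. With miR-181 reads alone it was 0.35, and leaving out single libraries gave -0.82 to -0.15. For enrichment in knockout, Malat1 was -0.92 (adjusted p = 0.053) with other miRNAs alone, and leaving out single libraries gave -0.99 to -0.60. The difference of effects on Malat1 was -1.01 (adjusted p = 0.035) with no filter, 0.21 with clusters, 0.65 with other miRNAs alone and 0.73 with miR-181 reads alone. The number of Malat1 clusters called was 1 under library sizes alone, repeats counted once, 50-nt joining, 100-nt bins and the replicate block.

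Between genotypes, same-numbered samples correlated between -0.10 and 0.013 over genes and matched their own number best in 0 and 1 of 3 cases. For enrichment, same-numbered samples correlated between 0.0051 and 0.083, and differently numbered ones between -0.084 and 0.028. There they matched their own number best in 2 of 3 cases in wild type and 3 of 3 in knockout. The labels do not say whether the numbers pair samples, and the main fits do not pair them. If they do, the unpaired enrichment p-values ignore it. With the replicate block, Malat1 enrichment in wild type was -0.29 (adjusted p = 0.029). Calls for enrichment went from 1148 to 1260 in wild type and from 171 to 179 in knockout. Calls between genotypes went from 161 to 136 in Ago2 IP and from 118 to 55 in enriched libraries. DESeq2 called 58 spans where edgeR called 161 (Ago2 IP), 72 against 118 (enriched) and 684 against 1148 (enrichment in wild type). In enriched libraries no filter gave 300 calls and leaving out single libraries 58 to 106. For the difference of effects, calls went from 50 to 87 with library sizes alone, 322 with clusters, 21 with no filter and 23 to 47 without single libraries. For enrichment in knockout, calls went from 171 to 293 with no filter and to 99 to 207 without single libraries, the lowest without knockout enriched library 2. The miR-15/16 share of Malat1 chimeras moved by less than its SD with repeats counted once (34.2% and 34.5%), without miR-503 (34.3% and 34.6%) and without single libraries (33.1% to 39.3%, 35.4% to 39.6%), alternatives added after seeing the data.

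Knockout enriched libraries of 6832 to 19264 reads limit what can be seen there: Neat1 had 2 reads, and DESeq2 gave it no adjusted p. Summing libraries 2 and 3 changed no call on the members.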
